A study of Drosophila melanogaster with 30 samples.

Results

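The comparison described here sets ovaries of Drosophila melanogaster females that carried an added Y chromosome named Ycongo against ovaries of females that carried an added Y named Yohio. It rests on 4 of the 30 libraries of the study, chosen by their labels: 2 of XXYcongo ovaries and 2 of XXYohio ovaries. A further 2 libraries of XX ovaries, from females without a Y, were used to estimate the spread and are given beside the others. The genotype labels have a caret between both X chromosomes (X^X/Ycongo, X^X/Yohio and X^X), a notation commonly used for attached X chromosomes that they do not spell out. All flies were 2 days old and had been reared at 23 °C under a 14 h light cycle. Because both tested genotypes hold an added Y, the comparison asks whether the kind of Y makes a difference at the same number of Y chromosomes.

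The Y chromosome of Drosophila is almost wholly heterochromatin, rich in satellite repeats, and its few protein-coding genes serve the male germ line. Natural Y chromosomes differ mainly in repeat content, and they are known to alter the expression of genes elsewhere in the genome. Females do not need a Y, so an ovary with a Y is a tissue in which Y-linked repeats such as Suppressor of Stellate are present without the male program. Ovaries also hold a large store of mitochondria, whose own genome encodes subunits of the respiratory chain and is transcribed into long precursors that are cut at the tRNAs between the mRNAs.

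Poly(A) RNA of whole ovaries was sequenced, and each library held between 8595497 and 15363636 counts, within the range of 6026258 to 15363636 of the whole series. Values are given in CPM, in which the counts of each library are brought to a common total with TMM factors. The germline markers chosen for ovary that matched a gene were all present, with 12 of 12 tested. Their summed level was 9926 and 10400 CPM in XXYcongo ovaries, 9045 and 9948 in XXYohio ovaries, and 13850 and 10990 in XX ovaries. The libraries of 1 genotype stood apart from each other most in XXYcongo, where the median gene differed by 0.50 on the log2 scale between both libraries, against 0.28 in XXYohio and 0.34 in XX. The labels call the libraries biological replicates without saying whether they came from separate cultures, and so p-values measure the spread between these libraries.

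Of 8829 genes tested, 1 changed between XXYcongo and XXYohio ovaries at an adjusted p below 0.05 in edgeR's quasi-likelihood test, which is 0.0113% of them. That gene was mt:ND3, which encodes a subunit of respiratory complex I, and it fell. None was called higher, where 372 genes (4.21%) had an unadjusted p below 0.05 and lay higher, and 350 (3.96%) lay lower. DESeq2 on the same counts called 15 genes higher (0.17%) and 28 lower (0.317%). All other genes named below are described by their values and were not called by edgeR.

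mt:ND3 (FBgn0013681, mitochondrial genome 5608 to 5961 in Ensembl BDGP6.54) had 6.97 and 15.7 CPM in XXYcongo ovaries, 548 and 355 CPM in XXYohio ovaries, and 1423 and 589 CPM in XX ovaries. Both XXYcongo libraries lay far below all 4 others. The level was 39.2-fold lower in XXYcongo than in XXYohio ovaries (log2 fold change -5.29 ± 0.58 SE, edgeR adjusted p = 0.0368). The direction was the same whichever library was left out, but the adjusted p was 0.204 without the XXYohio library 1, 0.271 without the XXYohio library 2 and 0.057 without the XX library 1.

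The other mRNAs of the mitochondrial genome lay on the same side. All 13 had a log2 fold change below 0, with a median of -1.62 against 0.01 over all genes tested. An unadjusted p below 0.05 was found for 9 of the 13, where 3.96% of all genes tested lay lower. In 10 of the 13 the XXYcongo libraries lay below both XXYohio libraries, a separation that 20.9% of all genes tested showed in that direction. DESeq2 called 5 of the 13, where it called 0.317% of all genes tested lower. In bulk ovaries, fewer cells or organelles of a kind and less RNA in each cannot be told apart.

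Among the complex I subunits, mt:ND2 had 140.3 and 150.2 CPM in XXYcongo ovaries, against 784 and 908 CPM in XXYohio ovaries (log2 fold change -2.54 ± 0.48 SE, edgeR adjusted p = 0.230). mt:ND6 had 3.78 and 13.5 CPM in XXYcongo ovaries, against 113 and 99.8 CPM in XXYohio ovaries (log2 fold change -3.58 ± 0.63 SE, edgeR adjusted p = 0.178). In both genes the groups did not overlap, and the XX ovaries lay above both kinds of XXY ovary. mt:ND4L, mt:ND5 and mt:ND4 also lay lower in both XXYcongo libraries, with log2 fold changes of -2.64, -1.80 and -1.07, while the libraries overlapped for mt:ND1 (-0.87 ± 0.75 SE).

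Of the ATP synthase subunits, mt:ATPase8 had 3.90 and 14.7 CPM in XXYcongo ovaries, against 132 and 182 CPM in XXYohio ovaries (log2 fold change -4.04 ± 0.55 SE, edgeR adjusted p = 0.0775). mt:ATPase6, whose reading frame overlaps that of mt:ATPase8 by 7 bases, had 1295 and 3497 CPM in XXYcongo ovaries, against 4765 and 6721 CPM in XXYohio ovaries (log2 fold change -1.26 ± 0.50 SE). The neighbours thus lay lower by unlike amounts. For every 100 counts of mt:ATPase6 there were 0.301 and 0.420 counts of mt:ATPase8 in XXYcongo ovaries, 2.77 and 2.70 in XXYohio ovaries, and 4.30 and 3.99 in XX ovaries, so that the 3 genotypes did not overlap. The same ratio for mt:ND4L and its neighbour mt:ND4 did overlap. Per 100 counts of mt:ND4, mt:ND4L had 2.59 and 0.114 counts in XXYcongo ovaries and 1.97 and 1.32 in XXYohio ovaries. In XX ovaries mt:ND4L had 2.64 and 1.73.

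Among the cytochrome oxidase and cytochrome b mRNAs, differences ranged from -1.62 to -0.47. mt:CoIII, a subunit of cytochrome oxidase, had 1500.0 and 2281 CPM in XXYcongo ovaries, against 5232 and 6423 CPM in XXYohio ovaries (log2 fold change -1.62 ± 0.39 SE), and mt:Cyt-b, part of complex III, differed by -1.16 ± 0.46 SE. mt:CoI had 8698 and 17280 CPM in XXYcongo ovaries, against 15700 and 21660 CPM in XXYohio ovaries, and the groups overlapped (log2 fold change -0.52 ± 0.52 SE). mt:CoII overlapped as well (-0.47 ± 0.59 SE), and its difference turned to 0.17 without the XXYcongo library 1.

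**Figure D1:**
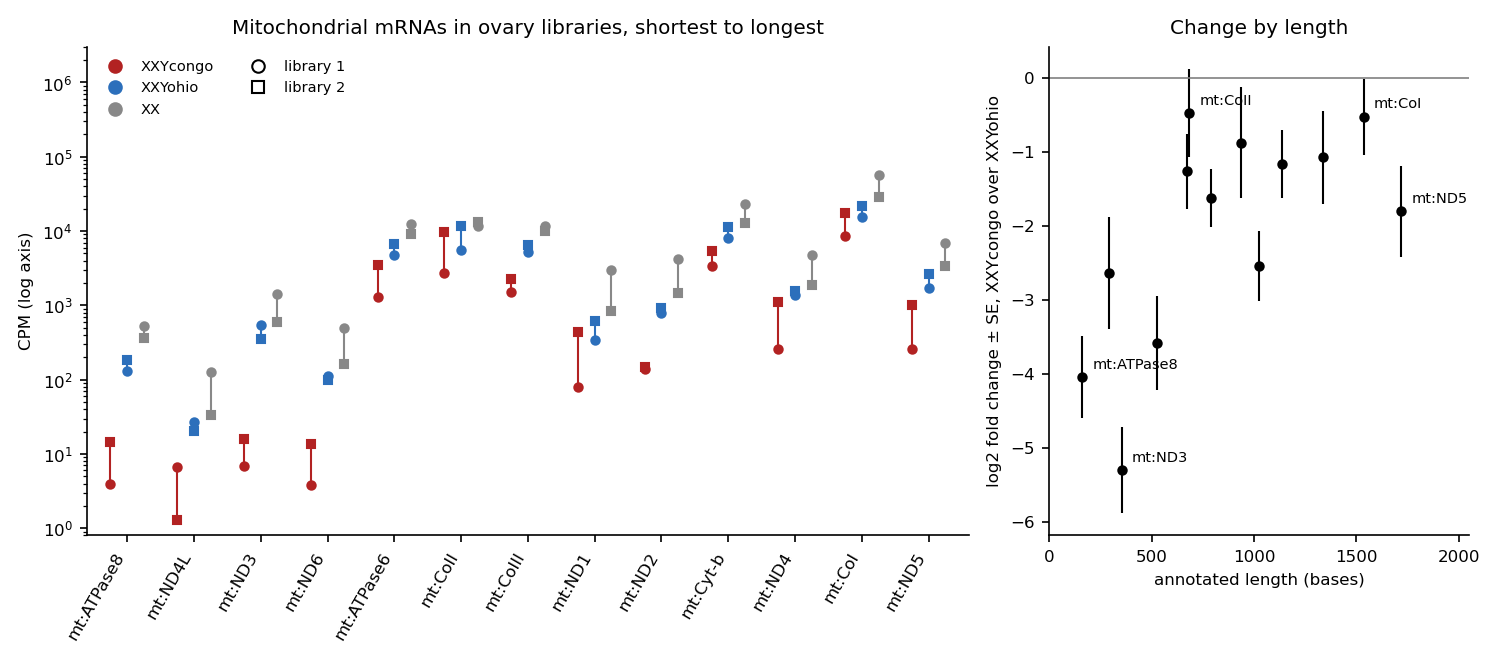
Left, CPM on a log axis of the 13 mitochondrial mRNAs, ordered by annotated length, in each XXYcongo, XXYohio and XX ovary library (circles library 1, squares library 2; lines join both libraries of a genotype). Right, log2 fold change of XXYcongo over XXYohio ovaries with its SE against annotated length in bases; mt:ND3 lies lowest at -5.29 and mt:CoII highest at -0.47.

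The differences were larger among the short mitochondrial mRNAs. The 4 shortest, mt:ATPase8 (162 bases), mt:ND4L (291), mt:ND3 (354) and mt:ND6 (525), had log2 fold changes between -5.29 and -2.64, whereas the other 9, of 675 to 1717 bases, had log2 fold changes between -2.54 and -0.47. mt:ND2, with 1024 bases, was the lowest of those 9. Whether length plays a part in the result was not tested.

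Mitochondrial tRNAs, the shortest genes of that genome, were counted here from poly(A) RNA. Whether their reads come from cut tRNAs or from uncut precursors was not tested. Of 22 tRNA and rRNA genes found, 15 were tested, all of them tRNAs. Of these 15, 14 lay below 0, with a median log2 fold change of -3.0 that became -4.92 without the XXYcongo library 2. An unadjusted p below 0.05 was found for 12, all lower, where 3.96% of all genes tested lay lower. mt:tRNA:Ala-TGC had 1 and 2 counts in the XXYcongo libraries (0.118 and 0.129 CPM), against 8.00 and 11.6 CPM in XXYohio ovaries. The ratio of XXYcongo to XXYohio was 0.0123, with a 95% exact counting interval of 0.00253 to 0.0365, and the edgeR adjusted p was 0.0574. mt:tRNA:Asp-GTC, with 3 counts in both XXYcongo libraries together, had a ratio of 0.0298 (0.00603 to 0.0895). The exception was mt:tRNA:Leu-TAA, named after its values were seen, with 46.2 and 319.7 CPM in XXYcongo ovaries, against 73.9 and 121 CPM in XXYohio ovaries. Genes of the mitochondrial genome together took 1.81% and 4.17% of all counts in XXYcongo ovaries, 4.82% and 6.61% in XXYohio ovaries, and 12.8% and 8.18% in XX ovaries.

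The same measures varied within genotypes in other tissues. In whole female bodies mt:ND3 had 186 and 1487 CPM in XXYcongo females, against 1047 and 2.29 CPM in XXYohio females, so that both libraries of XXYohio differed more from each other than the ovary groups did. In testes it had 15.4 and 66.3 CPM in XYYcongo males, 249 and 313 CPM in XYYohio males, and 97.7 and 18.8 CPM in XY males (log2 fold change of Ycongo over Yohio -2.78 ± 0.87 SE, edgeR adjusted p = 0.838). In the central nervous system (CNS) of female larvae it had 255 and 327 CPM in XXYcongo larvae, against 332 and 298 CPM in XXYohio larvae (log2 fold change -0.11 ± 0.35 SE). The counts of mt:ATPase8 per 100 of mt:ATPase6 varied likewise. In female bodies they were 1.66 and 8.31 with Ycongo and 7.89 and 0.771 with Yohio, in testes 0.362 and 1.28 with Ycongo and 2.53 and 2.04 with Yohio, and in the CNS 2.96 and 2.23 with Ycongo and 2.12 and 2.01 with Yohio. The lowest values of the 30 libraries were 0.301 in an XXYcongo ovary library, 0.362 in a testis library with Ycongo and 0.420 in the other XXYcongo ovary library.

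**Figure D2:**
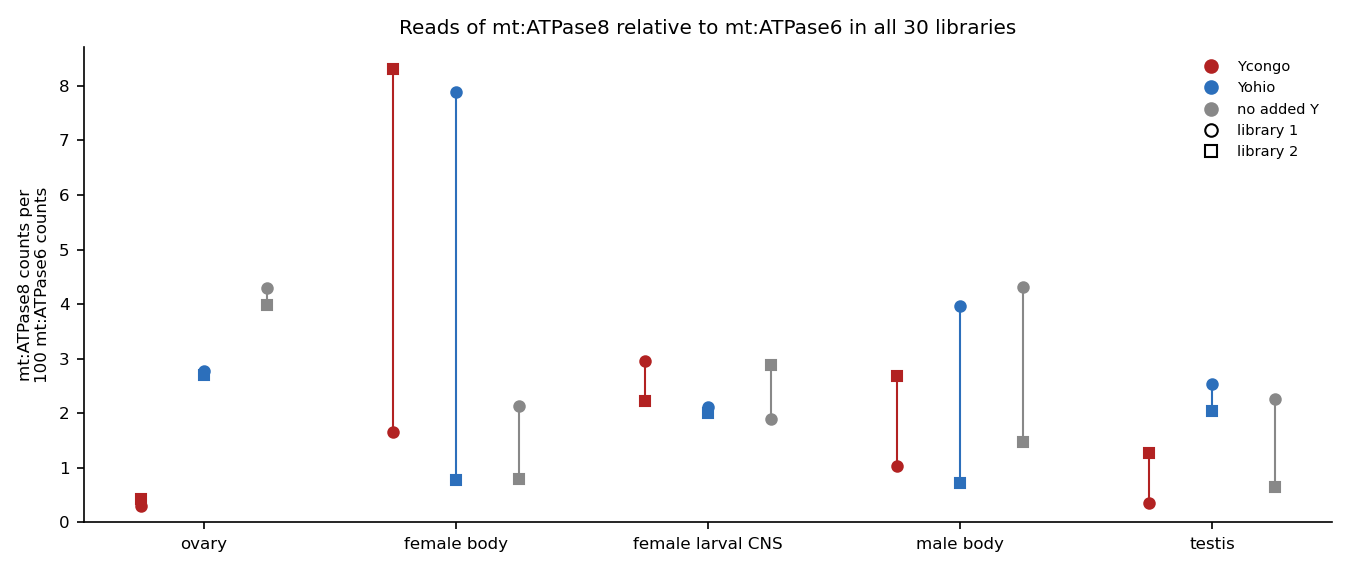
Counts of mt:ATPase8 per 100 counts of mt:ATPase6 (linear axis) in each of the 30 libraries, by tissue, with Ycongo left, Yohio in the middle and no added Y on the right; circles are library 1, squares library 2, and lines join both libraries of a group. In the ovary the 3 genotypes are apart (0.301 and 0.420, 2.77 and 2.70, 4.30 and 3.99), while in female bodies both libraries of XXYohio lie at 7.89 and 0.771.

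Nuclear genes of the respiratory chain lay on both sides of 0. Of 48 tested subunits, 23 lay above 0 and 25 below, with a median log2 fold change of -0.03 that became -0.45 without the XXYcongo library 1. An unadjusted p below 0.05 was found for 5, all of them higher, where 4.21% of all genes tested lay higher. COX4, a subunit of cytochrome oxidase, had 242 and 203 CPM in XXYcongo ovaries, against 113 and 127 CPM in XXYohio ovaries (log2 fold change 0.89 ± 0.26 SE, edgeR adjusted p = 0.558). SdhA, a subunit of complex II, had 274 and 456 CPM in XXYcongo ovaries, against 182 and 192 CPM in XXYohio ovaries. Of 18 factors of mitochondrial transcription and RNA handling, 9 lay above 0 and 9 below, with a median of 0.06 that became -0.0873 without the XXYohio library 2. Among them the mitochondrial RNA polymerase PolrMT had 128 and 152 CPM in XXYcongo ovaries, against 88.1 and 97.2 CPM in XXYohio ovaries, and the RNA-degrading enzyme PNPase had 39.4 and 38.8 CPM in XXYcongo ovaries, against 64.8 and 58.4 CPM in XXYohio ovaries.

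A small set of nuclear genes also lay lower in both XXYcongo libraries. They had the smallest p-values of the nuclear genes that did so at a mean log2 CPM of at least 2. CG9231 (FBgn0036887, 3L 19585093 to 19586003) had 28.4 and 21.1 CPM in XXYcongo ovaries, 95.8 and 82.3 CPM in XXYohio ovaries, and 114 and 97.8 CPM in XX ovaries (log2 fold change -1.85 ± 0.29 SE, edgeR adjusted p = 0.157, DESeq2 adjusted p = 2.63e-05). CG8500 (FBgn0037754, 3R 9784653 to 9789323) had 4.37 and 8.77 CPM in XXYcongo ovaries, 26.9 and 32.0 CPM in XXYohio ovaries, and 75.9 and 64.4 CPM in XX ovaries (log2 fold change -2.14 ± 0.37 SE, edgeR adjusted p = 0.178). In both genes the XXYcongo libraries were the lowest of the 6.

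Mrm2, whose human counterpart methylates mitochondrial ribosomal RNA, had 11.5 and 11.5 CPM in XXYcongo ovaries, against 29.3 and 32.6 CPM in XXYohio ovaries (log2 fold change -1.43 ± 0.29 SE, edgeR adjusted p = 0.297). CG40191 had 80.2 and 85.5 CPM in XXYcongo ovaries, against 208 and 203 CPM in XXYohio ovaries (log2 fold change -1.31 ± 0.26 SE). The gene with the identifier FBgn0044510, for which no symbol was found, had 54.2 and 71.9 CPM in XXYcongo ovaries, against 208 and 210.3 CPM in XXYohio ovaries (log2 fold change -1.73 ± 0.32 SE). DESeq2 called all 5 of these nuclear genes lower, against 0.317% of all genes tested. The 5 were picked by a small edgeR p on the same counts, so these calls are no independent support. CG8500 overlaps CG12945 and Mrm2 overlaps CG4572 on the opposite strand, and since the strandedness of the libraries is not stated, reads in the shared stretches cannot be assigned to 1 of the pair.

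On the other side, the 12 genes with the smallest p-values that lay higher in both XXYcongo libraries included large proteins of the extracellular matrix, of endocytosis and of muscle. Ppn (papilin, a component of basement membranes; FBgn0003137, 3R 28520665 to 28540324) had 104 and 107 CPM in XXYcongo ovaries, 35.3 and 37.1 CPM in XXYohio ovaries, and 95.9 and 79.8 CPM in XX ovaries (log2 fold change 1.54 ± 0.27 SE, edgeR adjusted p = 0.178). Here the XXYohio ovaries were the ones that lay apart from the other 4 libraries. dpy (dumpy, a giant protein of the apical extracellular matrix) had 16.3 and 21.5 CPM in XXYcongo ovaries, 5.05 and 5.67 CPM in XXYohio ovaries, and 12.6 and 11.1 CPM in XX ovaries (log2 fold change 1.81 ± 0.37 SE).

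mgl (megalin, an endocytic receptor of the LDL receptor family; FBgn0261260, X 9358496 to 9500129) had 752.5 and 553.5 CPM in XXYcongo ovaries, 140.0 and 212 CPM in XXYohio ovaries, and 273.5 and 211.5 CPM in XX ovaries (log2 fold change 1.89 ± 0.33 SE, edgeR adjusted p = 0.178). For this gene the XXYcongo ovaries were the highest and the XX ovaries overlapped XXYohio. arr (arrow, a co-receptor for Wingless from the same receptor family) had 153 and 116 CPM in XXYcongo ovaries, against 36.2 and 65.7 CPM in XXYohio ovaries (log2 fold change 1.40 ± 0.36 SE).

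Of the muscle and cytoskeletal proteins among these 12, Msp300 (a nesprin that ties nuclei to the cytoskeleton) had 171 and 555 CPM in XXYcongo ovaries, against 52.8 and 74.8 CPM in XXYohio ovaries (log2 fold change 2.51 ± 0.52 SE, edgeR adjusted p = 0.297). sls (sallimus, a titin-like protein of the sarcomere) had 87.6 and 163 CPM in XXYcongo ovaries, against 39.2 and 33.8 CPM in XXYohio ovaries (log2 fold change 1.78 ± 0.36 SE). Strn-Mlck, a titin-related kinase, had 33.3 and 22.2 CPM in XXYcongo ovaries, against 6.32 and 9.17 CPM in XXYohio ovaries (log2 fold change 1.83 ± 0.38 SE). In all of these the groups did not overlap. Mlc2, a myosin light chain, had 170.1 and 158 CPM in XXYcongo ovaries, against 80.4 and 73.2 CPM in XXYohio ovaries, and beta-Spec, a spectrin of the membrane skeleton, had 369.6 and 365 CPM in XXYcongo ovaries, against 162 and 178 CPM in XXYohio ovaries.

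The remaining 3 had other roles. Nadk2, an NAD kinase, had 203 and 229 CPM in XXYcongo ovaries, against 74.8 and 78.8 CPM in XXYohio ovaries (log2 fold change 1.49 ± 0.32 SE). eIF2A, a translation initiation factor, had 1394 and 942 CPM in XXYcongo ovaries, against 394 and 415 CPM in XXYohio ovaries (log2 fold change 1.53 ± 0.36 SE). The antisense RNA asRNA:CR44984 had 126 and 157 CPM in XXYcongo ovaries, against 26.4 and 62.1 CPM in XXYohio ovaries. asRNA:CR44984 lies wholly within the cell adhesion gene ed on the opposite strand, and ed itself had a log2 fold change of 0.66. Nadk2 overlaps the piRNA pathway gene Boot by 388 bases on the same strand, and Boot had a log2 fold change of 1.03. DESeq2 called 11 of the 12 higher genes, all but arr, whose DESeq2 adjusted p was 0.0559. It called 0.17% of all genes tested higher. The 12 were picked by a small edgeR p on the same counts, so these calls are no independent support.

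**Figure D3:**
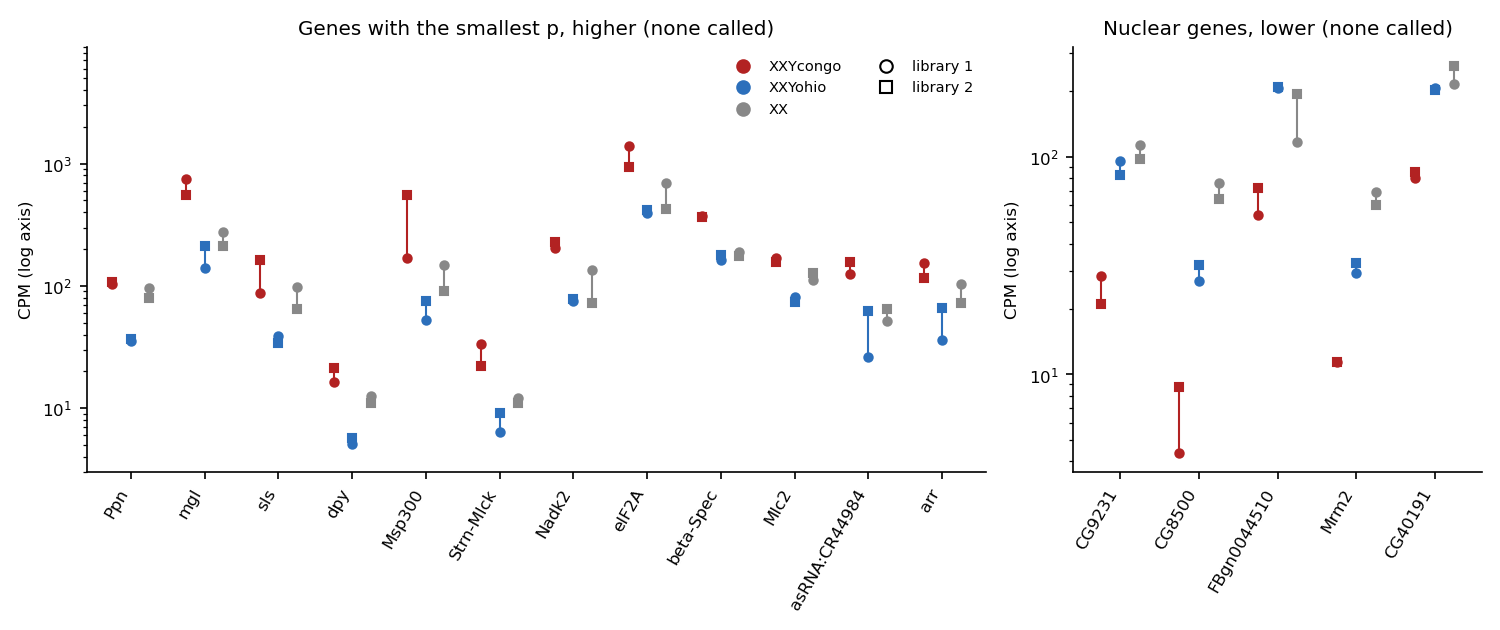
CPM on a log axis in each XXYcongo, XXYohio and XX ovary library of the 12 genes that lay higher in XXYcongo than in XXYohio ovaries (left) and of the 5 nuclear genes that lay lower (right), ordered by p; none passed the edgeR test. Circles are library 1 and squares library 2. Ppn, sls and dpy have their lowest values in XXYohio ovaries, and CG9231, CG8500 and Mrm2 their lowest in XXYcongo ovaries.

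Several of the higher genes are among the longest of the fly genome, with annotated exon lengths of 71820 bases for dpy, 69810 for Msp300 and 58996 for sls, against a median of 2062 over the nuclear genes tested. The log2 fold change of XXYcongo over XXYohio ovaries tended to be more positive in longer genes. The Spearman rho was 0.247 across 8659 genes, which share the same 4 libraries and are not independent replicates. Genes with an unadjusted p below 0.05 that lay higher had a median exon length of 3560 bases, and those that lay lower 1511 bases. The nuclear genes were split by exon length into 10 bins of equal size. From bin 1, the shortest, to bin 5 the median log2 fold change lay between -0.14 and -0.05 without a steady rise. It rose from -0.09 in bin 6 onward. In the longest bin, from 5809 to 71820 bases, the median log2 fold change was 0.41, and 135 of its 866 genes had an unadjusted p below 0.05 and lay higher, against 5 that lay lower.

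The libraries differed in this trend within genotypes too. In the longest bin the median deviation from the mean of the 6 ovary libraries was 0.05 and 0.25 on the log2 scale in the XXYcongo libraries, -0.39 and -0.08 in the XXYohio libraries, and 0.18 and 0.01 in the XX libraries. The XXYohio library 1 thus lay farthest from 0. With the trend removed from each library, a step added after the values were seen, Ppn differed by 1.09 ± 0.25 SE, mgl by 1.33 ± 0.30 SE, Msp300 by 1.84 ± 0.42 SE and CG9231 by -1.68 ± 0.25 SE on the log2 scale. Before that step the values were 1.54 for Ppn, 1.89 for mgl, 2.51 for Msp300 and -1.85 for CG9231, so each came closer to 0. The long genes sls and dpy came closer to 0 as well. sls differed by 1.10 ± 0.32 SE and dpy by 1.19 ± 0.33 SE after that step, against 1.78 and 1.81 before it. Other named genes moved away from 0. Nadk2 went from 1.49 to 1.62, eIF2A from 1.53 to 1.57, Mlc2 from 1.10 to 1.18 and asRNA:CR44984 from 1.67 to 1.83. Among the lower genes, CG8500 went from -2.14 to -2.18 and CG40191 from -1.31 to -1.32. Under that step mt:ND3 differed by -5.20 (edgeR adjusted p = 0.0624) and 1 gene was called, mt:tRNA:Ala-TGC (edgeR adjusted p = 0.00514).

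**Figure D4:**
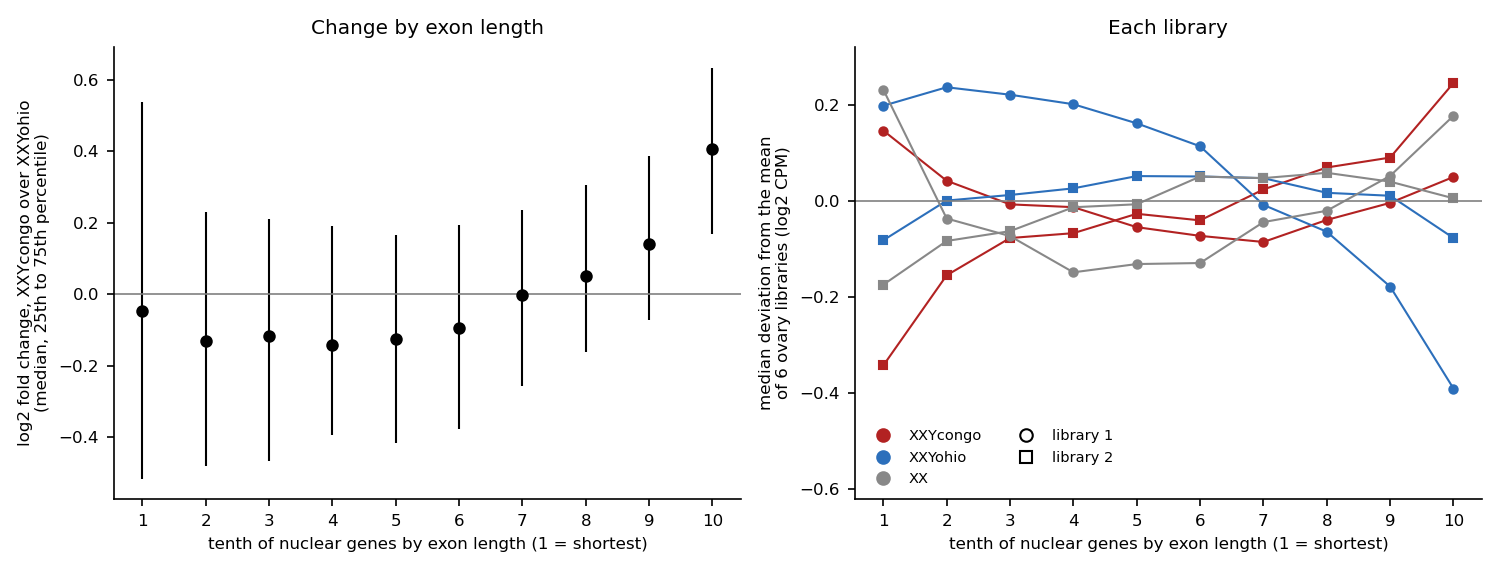
Left, median log2 fold change of XXYcongo over XXYohio ovaries (bars from the 25th to the 75th percentile) in 10 equal bins of the nuclear genes by exon length; it is 0.41 in the longest bin. Right, median deviation of each ovary library from the mean of the 6 libraries (log2 CPM) in the same bins; the XXYohio library 1 lies at -0.39 and the XXYcongo library 2 at 0.25 in the longest bin.

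Muscle genes, which mark the sheath around the ovary and the oviduct, were seen in all libraries. Of 25 tested markers, 18 lay above 0 and 10 had an unadjusted p below 0.05 and lay higher, with a median log2 fold change of 0.50 that became 0.93 without the XXYohio library 1. Over all genes tested, 4.21% lay higher at that threshold. The 10 had a median exon length of 7605 bases, against 3136 for the whole list. Besides those above, they included Mhc (muscle myosin heavy chain), with 224 and 222 CPM in XXYcongo ovaries, against 137 and 90.3 CPM in XXYohio ovaries, and bt, a titin-like kinase, with 118 and 224 CPM in XXYcongo ovaries, against 76.6 and 64.5 CPM in XXYohio ovaries. Other muscle genes did not lie higher. Act57B had 389.9 and 347 CPM in XXYcongo ovaries, against 530.0 and 420.1 CPM in XXYohio ovaries, and Mlc1 and TpnC73F overlapped. These further muscle genes were named after their values were seen. The summed level of the list was 2067 and 2657 CPM in XXYcongo ovaries, 1789 and 1541 CPM in XXYohio ovaries, and 2504 and 2497 CPM in XX ovaries, and its part in the results above was not tested.

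Of 9 tested markers of hemocytes, the blood cells, 8 lay above 0 and 4 had an unadjusted p below 0.05, all higher. At that threshold 4.21% of all genes tested lay higher. The 4 were Ppn, Hml and the 2 collagen IV chains Col4a1 and vkg. Their median exon length was 8023.5 bases, against 5955 for the 9 tested. The median log2 fold change of the 9, 0.73, became 0.41 without the XXYcongo library 1 and 0.37 without the XXYohio library 2. Col4a1 had 156 and 183 CPM in XXYcongo ovaries, against 105 and 82.8 CPM in XXYohio ovaries (log2 fold change 0.85 ± 0.27 SE, edgeR adjusted p = 0.558). The other 7 of the 16 markers matched were too low to be tested. He had 0 and 0 CPM, NimC1 0 and 0.129 CPM and eater 0 and 0.902 CPM in XXYcongo ovaries, and each had at most 0.14 CPM in XXYohio ovaries. NimC2 had 0.354 and 0.129 CPM in XXYcongo ovaries, against 1.05 and 0.63 CPM in XXYohio ovaries, and Sr-CI had 0.236 and 0.58 CPM in XXYcongo ovaries, against 0.842 and 0.56 CPM in XXYohio ovaries. NimC4 had at most 0.472 CPM in these 4 libraries, and gcm had 0 CPM in all of them. The summed level of the list was 738 and 777 CPM in XXYcongo ovaries, 585 and 492 CPM in XXYohio ovaries, and 594 and 592 CPM in XX ovaries, and its part in the results was not tested. Hml, a hemolectin, had 9.80 and 10.6 CPM in XXYcongo ovaries, against 5.47 and 3.43 CPM in XXYohio ovaries. Its log2 fold change of 1.21 became 0.61 with the length trend removed. Col4a1 then differed by 0.58 ± 0.27 SE and vkg by 0.44 ± 0.36 SE, against 0.85 and 0.73 before.

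Fat body markers lay on the other side. Of 7 tested, 6 lay below 0, with a median log2 fold change of -0.79 that became -0.34 without the XXYohio library 2. An unadjusted p below 0.05 was found for 2, both lower, where 3.96% of all genes tested lay lower. apolpp, the precursor of the main lipid carrier of the blood, had 9.80 and 41.5 CPM in XXYcongo ovaries, 78.0 and 127 CPM in XXYohio ovaries, and 356 and 152 CPM in XX ovaries. The storage protein gene Lsp2 had 0.591 and 1.16 CPM in XXYcongo ovaries, against 1.58 and 6.79 CPM in XXYohio ovaries. The summed level of the list was 17.6 and 50.8 CPM in XXYcongo ovaries, 88.3 and 146 CPM in XXYohio ovaries, and 392 and 196 CPM in XX ovaries, the same order of genotypes as for the share of mitochondrial counts. Fbp1, Fbp2 and Lsp1alpha, which define the larval fat body, had at most 0.709 CPM in XXYcongo ovaries and at most 0.28 CPM in XXYohio ovaries, and whether fat body left on the ovaries plays a part in the mitochondrial result was not tested.

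Among genes of the follicle cells, which surround the oocyte and secrete the eggshell, the vitelline membrane and yolk genes had 4 of 16 tested members with an unadjusted p below 0.05, all lower, where 3.96% of all genes tested lay lower at that threshold, and a median log2 fold change of -0.30. Vml, a protein of the vitelline membrane, had 124 and 175 CPM in XXYcongo ovaries, against 459 and 395 CPM in XXYohio ovaries (log2 fold change -1.52 ± 0.39 SE, edgeR adjusted p = 0.464, DESeq2 adjusted p = 0.0331), without overlap. Vm26Ab had 208 and 80.4 CPM in XXYcongo ovaries, against 396 and 224 CPM in XXYohio ovaries. Of 17 chorion genes, which act later, 12 lay below 0 and 1, Femcoat, had an unadjusted p below 0.05, with 60.6 and 53.4 CPM in XXYcongo ovaries, against 104 and 131 CPM in XXYohio ovaries. Of 19 follicle cell regulators, whose median of 0.20 became 0.47 without the XXYcongo library 1 and 0.0834 without the XXYcongo library 2, 3 had an unadjusted p below 0.05, all higher, among them the receptors N (Notch), with 367 and 356 CPM in XXYcongo ovaries, against 88.5 and 138 CPM in XXYohio ovaries, and Egfr, with 82.0 and 92.4 CPM in XXYcongo ovaries, against 49.8 and 60.3 CPM in XXYohio ovaries. Over all genes tested, 4.21% lay higher at that threshold. N has an exon length of 10150 bases and Egfr of 6947 bases. With the length trend removed they differed by 1.22 ± 0.40 SE and 0.37 ± 0.24 SE, against 1.67 and 0.66 before.

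Germline genes showed small differences in both directions. Of 34 germline and oocyte genes tested, 5 lay higher and 2 lower at an unadjusted p below 0.05, with a median log2 fold change of 0.15. The shares over all genes tested were 4.21% higher and 3.96% lower. The anterior determinant bcd had 100.4 and 98.6 CPM in XXYcongo ovaries, against 154 and 164 CPM in XXYohio ovaries (log2 fold change -0.68 ± 0.26 SE), and swa, needed to place its mRNA, had 238 and 224 CPM in XXYcongo ovaries, against 422 and 345.5 CPM in XXYohio ovaries. mei-P26, a regulator of germline differentiation, had 762 and 948 CPM in XXYcongo ovaries, against 371 and 534 CPM in XXYohio ovaries (log2 fold change 0.92 ± 0.36 SE). With its exon length of 23228 bases, mei-P26 differed by 0.31 ± 0.27 SE once the length trend was removed.

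The piRNA pathway silences transposons and, in males, the Stellate repeats. Of its 35 tested genes, 24 lay above 0 and 4 had an unadjusted p below 0.05, all higher. At that threshold 4.21% of all genes tested lay higher. The median log2 fold change of the 35 was 0.14 and turned to -0.08 without the XXYcongo library 2. aub, a Piwi-family protein of the germ line, had 266 and 323 CPM in XXYcongo ovaries, against 186 and 202 CPM in XXYohio ovaries (log2 fold change 0.60 ± 0.27 SE, edgeR adjusted p = 0.608). qin had 140.0 and 98.2 CPM in XXYcongo ovaries, against 62.6 and 64.4 CPM in XXYohio ovaries, and fs(1)Yb, which acts in the somatic cells, had 11.2 and 9.47 CPM in XXYcongo ovaries, against 4.32 and 4.27 CPM in XXYohio ovaries.

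Of 27 heterochromatin genes, 1 had an unadjusted p below 0.05: D1, a protein that binds AT-rich satellite DNA, with 201 and 280.4 CPM in XXYcongo ovaries, against 758 and 481 CPM in XXYohio ovaries (log2 fold change -1.36 ± 0.34 SE, edgeR adjusted p = 0.464, DESeq2 adjusted p = 0.0247). Of all genes tested, 8.18% had a p below that threshold, and the median of the list was 0.06. Of 30 nucleolar genes, Fib (fibrillarin, which methylates ribosomal RNA) had 47.2 and 34.8 CPM in XXYcongo ovaries, against 105 and 83.6 CPM in XXYohio ovaries (log2 fold change -1.20 ± 0.30 SE), while Non1 lay higher (0.69 ± 0.28 SE). Of 24 heat shock and stress genes none had an unadjusted p below 0.05 and DESeq2 called none, with a median of 0.06 that turned to -0.14 without the XXYcongo library 1.

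Some lists depended on 1 library. For comparison, 4.21% of all genes tested lay higher and 3.96% lower at an unadjusted p below 0.05. Of 77 cytoplasmic ribosomal protein genes, 9 lay higher and 1 lower at an unadjusted p below 0.05, among them RpS23 with 1215 and 2023 CPM in XXYcongo ovaries, against 638 and 486 CPM in XXYohio ovaries (DESeq2 adjusted p = 0.0184). Their median of -0.05 became -0.52 without the XXYcongo library 1, 0.37 without the XXYcongo library 2 and 0.39 without the XXYohio library 1. Of 81 replication-dependent histone genes, which are near-identical copies whose single counts are uncertain, the median of 0.60 became -1.25 without the XXYcongo library 1 and 1.49 without the XXYcongo library 2, and 6 lay lower at an unadjusted p below 0.05. Of 16 dosage compensation and sex determination genes, 3 lay higher, among them the female switch gene Sxl with 381 and 367 CPM in XXYcongo ovaries, against 167 and 255 CPM in XXYohio ovaries; their median of 0.24 became -0.08 without the XXYcongo library 2.

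The remaining lists held few genes below an unadjusted p of 0.05, a threshold that 8.18% of all genes tested passed. Of 42 cell cycle genes, 2 lay higher (fzy and fzr) and 1 lower (geminin). Of 20 ecdysone genes, 2 lay higher (Cyp18a1 and Eip74EF), and of 10 immune effectors, 2 lay lower (nec and BomT3, both below 4 CPM in these 4 libraries). Of 5 neuron, 7 glia and 7 reproductive tract markers tested, none had an unadjusted p below 0.05, and of 6 tracheal markers 1 lay higher (osy). Of 5 photoreceptor genes, inaD lay higher and rdgB lower, but inaD had 5.55 and 86.9 CPM in XXYcongo ovaries, against 9.90 and 5.95 CPM in XXYohio ovaries, so its value rested on 1 library.

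**Figure D5:**
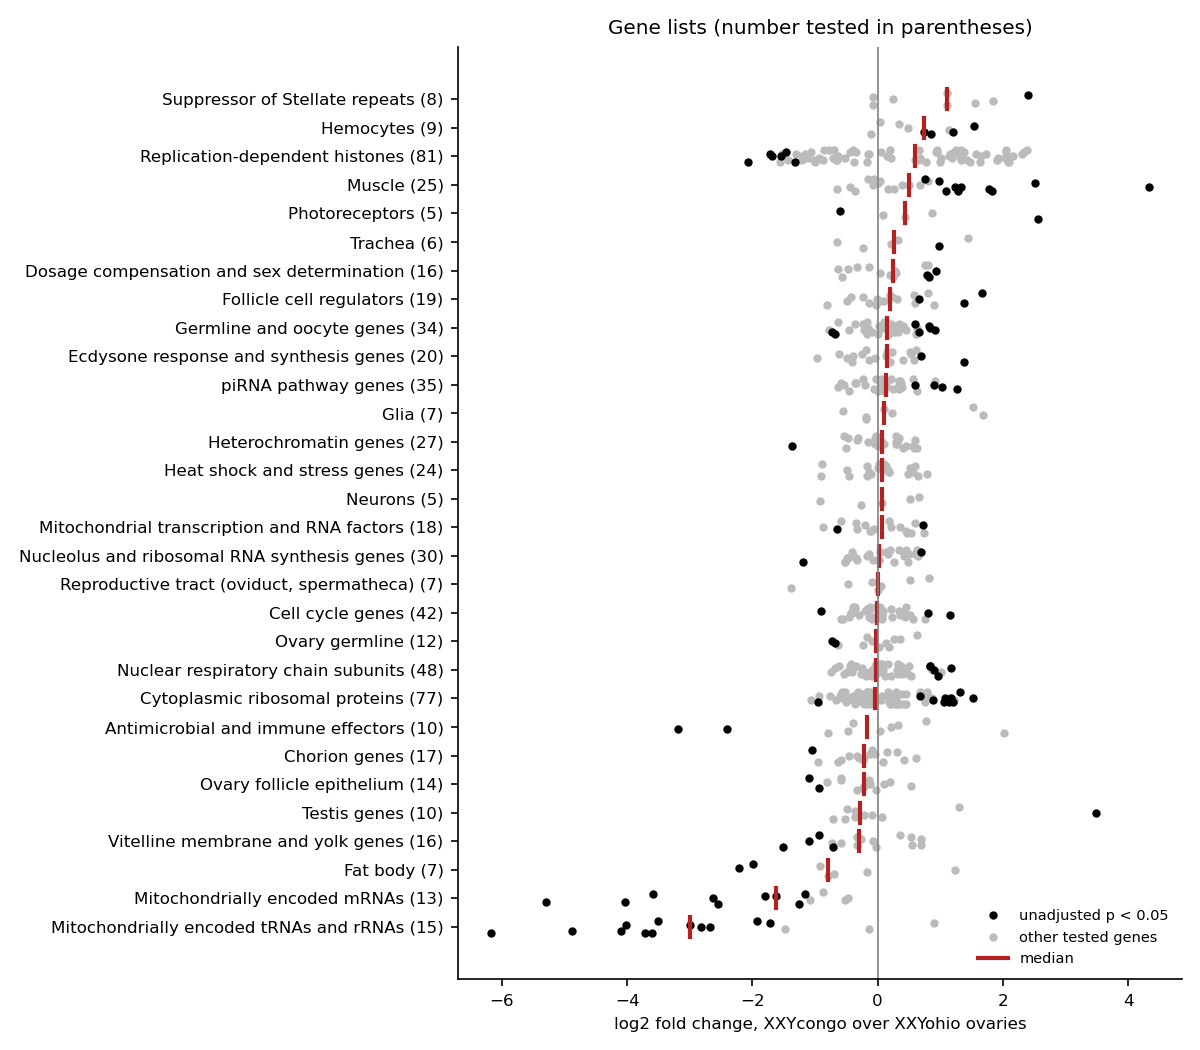
Log2 fold change of XXYcongo over XXYohio ovaries for the tested genes of each list with at least 5 of them (points; black where the unadjusted edgeR p was below 0.05, grey otherwise), with the median in red and the number tested in parentheses. Mitochondrially encoded genes lie lowest with medians of -1.62 and -3.0, and the median is 0.50 for muscle and 0.73 for hemocyte markers.

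Y-linked transcripts showed no called difference between both Y chromosomes. Of the 12 protein-coding Y genes, FDY alone was tested, a gene that arose from the autosomal gene vig2. It had 46.9 and 42.3 CPM in XXYcongo ovaries, 63.2 and 36.9 CPM in XXYohio ovaries, and 3.47 and 1.49 CPM in XX ovaries, and the XXYcongo libraries lay between the XXYohio libraries (log2 fold change -0.16 ± 0.39 SE, edgeR adjusted p = 0.923). The 11 other genes, which include the sperm dynein heavy chains kl-2, kl-3 and kl-5, together had 3 and 14 counts in XXYcongo ovaries and 1 and 17 counts in XXYohio ovaries, so that a difference between the Y chromosomes was not detectable at this depth.

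The Suppressor of Stellate repeats, Y-linked copies that give rise to piRNAs against Stellate in the male germ line, were transcribed in both kinds of XXY ovary. Summed over 34 repeats, they had 28.8 and 44.3 CPM in XXYcongo ovaries, 16.1 and 19.5 CPM in XXYohio ovaries, and 0 and 0 CPM in XX ovaries, where a count of 0 allows up to 0.325 and 0.280 CPM. The XXYcongo libraries lay above both XXYohio libraries (log2 fold change 1.04 ± 0.36 SE), but the sum did not pass the test (edgeR adjusted p = 0.584). Of the 8 repeats tested singly, 6 lay above 0, and their median of 1.10 became -0.08 without the XXYcongo library 2, in which Su(Ste):CR42415 had 6.96 CPM and Su(Ste):CR42433 9.60 CPM against 0.118 and 2.60 CPM in the XXYcongo library 1. Because the copies are near-identical, counts of single repeats are uncertain. The X-linked Stellate repeats had 0.354 and 0.322 CPM in XXYcongo ovaries and 0.211 and 0 CPM in XXYohio ovaries.

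By chromosome arm, median log2 fold changes lay between -0.02 and 0.08 for 2L, 2R, 3L, 3R, 4 and X, and the highest of these, 0.08, was that of the 79 genes of the heterochromatin-rich chromosome 4. The 7 Y-linked genes tested, mostly Suppressor of Stellate repeats, had a median of 1.11, and the 144 genes without a placed position 0.13. The 28 mitochondrial genes had a median of -2.59.

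Whether the difference between the Y chromosomes was particular to the ovary was tested as a difference of differences. Against the larval CNS, 1 of 10526 genes passed (0.0095%), while 868 (8.25%) had an unadjusted p below 0.05 and DESeq2 called 64 (0.62%). That gene was the secreted metalloprotease gene sona, with a difference of 4.04 ± 0.49 SE on the log2 scale (edgeR adjusted p = 0.0272). In ovaries sona had 62.0 and 86.1 CPM with Ycongo, against 44.8 and 43.8 CPM with Yohio, and in the CNS 1.58 and 1.84 CPM with Ycongo, against 19.5 and 14.2 CPM with Yohio, so most of that difference lay in the CNS. mt:ND3 came next at -5.16 ± 0.73 SE (edgeR adjusted p = 0.067), followed by mt:tRNA:Ala-TGC and mt:ATPase8 among those that lay lower. Against whole female bodies, which contain the ovary, 0 of 10798 genes passed in edgeR and DESeq2 called 1 (0.00926%). An unadjusted p below 0.05 was found for 495 (4.58%). There mt:ND3 differed by -5.96 ± 2.64 SE (edgeR adjusted p = 0.935), with the wide spread between body libraries given above. The lack of calls thus does not show that ovary and body are alike.

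Each tissue was also compared by itself, Ycongo against Yohio. In the CNS edgeR called 3 genes (0.0302%) and DESeq2 54 (0.543%), with 386 (3.88%) at an unadjusted p below 0.05. In testes edgeR called 0 and DESeq2 8 (0.0628%), with 474 (3.72%) at an unadjusted p below 0.05. In male bodies edgeR called 0 and DESeq2 16 (0.124%), with 856 (6.64%) at an unadjusted p below 0.05, and in female bodies both called 0, with 137 (1.31%) at an unadjusted p below 0.05. Several of the genes named above were also set side by side there. In the CNS the log2 fold change of Ycongo over Yohio was -0.21 ± 0.47 SE for Ppn, -0.06 ± 0.23 SE for mgl, -0.68 ± 0.23 SE for sls and -0.15 ± 0.35 SE for CG9231. In testes it was -0.07 ± 0.29 SE for Ppn, 0.04 ± 0.18 SE for mgl, -0.90 ± 0.62 SE for CG9231 and -0.71 ± 0.39 SE for CG8500, and none of these passed the test. FDY differed by -0.22 ± 0.35 SE in the CNS, -0.41 ± 0.49 SE in female bodies and 0.11 ± 0.27 SE in testes.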

How the data were processed

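Total RNA was taken with Trizol, and poly(A) RNA was selected and sequenced in read pairs, per the labels' protocols. The submitters' processing notes name DESeq2 1.8.1, R 3.2.3, SAMtools, Bowtie2 and Trim Galore, without settings; the genome build and the strandedness were not given in the sources used here. Some deposited files carry the abbreviation Cs for libraries whose sample labels give Yohio; the sample labels, which do not explain it, were followed. The deposited files hold raw counts for 16868 genes per library, without normalization. Symbols and positions were found for 16649 identifiers in Ensembl BDGP6.54, which may not be the authors' build. The authors' tables of comparisons were not used.

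Counts of the 6 ovary libraries were filtered with filterByExpr (minimum count 10), scaled with TMM and tested with edgeR 4.0.16 (R 4.3.3) by its quasi-likelihood test, with 3 residual degrees of freedom, and p-values were adjusted by Benjamini-Hochberg over 8829 genes and 3 sums of repeats or Y genes. Values ± SE are log2 fold changes. The biological coefficient of variation was 0.297. With 2 libraries against 2, an exact permutation test cannot go below 0.333, so none was made. DESeq2 1.42.0 and the other alternatives are given under the dependence on processing. The limit for a count of 0 was 3 counts, and this limit, like each interval, covers counting error alone.

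The comparison, the gene lists and the tests were chosen with earlier results of these data known; 37 of 692 list entries matched no gene. Named are the called genes, then genes with the smallest p that lay apart between groups at a mean log2 CPM of at least 2, up to 12 per direction, the Y genes and their sums, the mitochondrial mRNAs, up to 4 genes per list and the top genes of each difference of differences.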

Additional observations from a re-analysis of the deposited data

Results flagged for a closer look

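The metalloprotease gene sona differed between tissues in how its level depended on the kind of Y, by 4.04 ± 0.49 SE on the log2 scale for ovary minus CNS (edgeR adjusted p = 0.0272). It was the only gene to pass that test. In the CNS it had 1.58 and 1.84 CPM with Ycongo, against 19.5 and 14.2 CPM with Yohio, and in ovaries 62.0 and 86.1 CPM with Ycongo, against 44.8 and 43.8 CPM with Yohio. The adjusted p was 0.318 without the XXYohio ovary library 1, 0.219 without the XXYohio ovary library 2, 0.209 without the XXYcongo CNS library 1 and 0.282 without the XXYcongo CNS library 2, while the difference lay between 3.79 and 4.32 on the log2 scale whichever library was left out. The tissues also differ in stage, larval for the CNS and adult for the ovary, and tissue and stage cannot be told apart.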

How the results depend on the processing

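The count of 1 called gene in XXYcongo against XXYohio ovaries was 1 with RLE scaling, on the 4 libraries alone and with the length trend removed, but under the last it was another gene (0 shared). It was 163 with no filter on low counts (98 higher, 65 lower), 43 with DESeq2 and 0 without mitochondrially encoded genes. Leaving out 1 library gave 0 to 198 calls: 0 without the XX library 1 or either XXYohio library, 2 without the XX library 2, 197 without the XXYcongo library 1 and 198 without the XXYcongo library 2, of which 26 were shared. mt:ND3 stayed lower under every alternative that tested it, between -6.02 and -4.84. With the replicate number as a block there were 18 calls (6 higher, 12 lower). Same-numbered deviations correlated weakly, at 0.158 (XXYcongo with XXYohio), 0.193 (XXYcongo with XX) and 0.029 (XXYohio with XX). With so few libraries per genotype, this check cannot decide whether the numbers mark a shared batch. The sum of Y genes other than FDY, -0.06, turned to 0.14 with the block, to 2.50 without the XXYohio library 2, to 0.38 without the XXYcongo library 1 and to 0.0133 with the length trend removed; its lowest value with a library left out was -0.95. The calls of ovary minus CNS were 246 with no filter, 64 with DESeq2 and 0 to 42 with a library left out; those of ovary minus female body were 75 with no filter, 1 with DESeq2 and 0 to 0 with a library left out. For genes whose sign turned with a library left out, the lowest and highest values were -0.42 and 1.13 for abd-A, -0.50 and 3.47 for inaD, -4.48 and 2.58 for repo, -0.29 and 0.56 for pio, -1.28 and 0.0541 for Oamb, -2.67 and 2.94 for PGRP-SD, -2.98 and 2.76 for Su(Ste):CR42415, -0.15 and 1.74 for Su(Ste):CR42433 and -0.12 and 0.95 for elav, whose signs turned without the XXYcongo library 2. They were -0.66 and 0.0105 for Appl and -0.0275 and 0.45 for loco, which turned without the XXYcongo library 1, -1.65 and 0.17 for mt:CoII, which turned without that library or the XXYohio library 2, and -0.50 and 0.27 for FDY, which turned without the XXYohio library 1. With the length trend removed the sign turned for loco (-0.0959), dom (-0.0431), elav (-0.0416) and FDY (0.0609). The causes were not tested. Of 2215 alternative values of single genes, repeats and lists, 2003 kept their direction and side of the threshold, 144 passed it newly and 8 no longer passed, 4 of them for mt:ND3 and 4 for sona.

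With 2 libraries per genotype, the spread was estimated from few values. XXYcongo libraries differed from each other more than those of the other genotypes, and leaving out either one left a lone library that is assumed to vary like the others.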

Other observations

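Some genes of other organs differed widely between both XXYcongo ovary libraries. The flight muscle genes Act88F and fln had 22.0 and 7.21 CPM in the XXYcongo library 1, against 0.387 and 0 CPM in the XXYcongo library 2, and at most 0.63 and 0.35 CPM in XXYohio ovaries. The photoreceptor gene inaD had 86.9 CPM and the glial gene repo 16.1 CPM in the XXYcongo library 2, against 5.55 and 0.118 CPM in the XXYcongo library 1. In XX ovaries inaD had 14.8 and 5.23 CPM and repo 15.8 and 6.82 CPM, so repo was nearly as high in the XX library 1. The mitochondrial fusion gene fzo, which acts in sperm development, had 7.21 and 0.516 CPM in XXYcongo ovaries, against 0.211 and 0.42 CPM in XXYohio ovaries. XX ovaries had 3.79 and 0.654 CPM of fzo. These genes were picked out with their values in view.

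The nuclear genes CG9231, CG8500, Mrm2, CG40191 and FBgn0044510, which lay lower in XXYcongo ovaries with the smallest p-values of nuclear genes, also differed within the pair of XXYohio female body libraries, in which mt:ND3 had 1047 and 2.29 CPM. There CG9231 had 69.2 and 21.0 CPM, CG8500 58.0 and 8.19 CPM, Mrm2 33.7 and 6.22 CPM, CG40191 197 and 58.2 CPM, and FBgn0044510 90.6 and 37.0 CPM. All 5 were lower in the library with less mt:ND3. How many other genes were lower there too was not counted, so a particular link to mt:ND3 cannot be read from this. Mitochondrial genes took 33.2% and 5.21% of all counts in these XXYohio body libraries. In XX female bodies, with 258 and 6.92 CPM of mt:ND3, the same 5 genes were again lower in the library with less of it, with 34.0 and 21.0 CPM for CG9231 and 40.4 and 18.5 CPM for CG8500. What these libraries share was not tested.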
